A study of Mus musculus with 4 samples.

Results

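The Vip-like interneurons described here are 160 of 13270 nuclei that passed quality limits, out of 22402 barcodes in all. The limits were 500 genes or more, 800 UMIs or more (unique molecular identifiers, each standing for 1 captured RNA molecule) and no more than 5% of UMIs in mitochondrial genes. Each kept nucleus received a score, the mean over Vip, Adarb2, Calb2 and Prox1 of the natural log of 1 plus the gene's UMIs per 10000. The members were chosen by their measured levels of these 4 genes: they are the 160 highest scores among nuclei with at least 3 UMIs summed over Gad1, Gad2 and Erbb4 and at least 1 UMI of Vip or Calb2. Nuclei that met the Gad1, Gad2 and Erbb4 condition are called gated below, and the 2884 gated nuclei that are not members served for comparison.

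The tissue was mouse medial prefrontal cortex from 4 animals of strain C57BL/6J aged 9 weeks. DOI, a psychedelic that activates serotonin receptors, had been given to 2 of the mice and saline to the other 2. Each group held 1 female and 1 male, and tissue was taken 24 hours after the injection. All 4 animals, saline mice included, expressed scFLARE2, which releases the transcription factor tTA in cells active under light, and TRE-mCherry-p2a-bReaChES, a tTA-driven reporter. The deposited counts came as 1 matrix in which barcode endings separate 4 libraries, called libraries 1 to 4 here. No source used here ties an ending to a mouse, so no DOI nucleus was compared with a saline nucleus, the matrix stood as 1 sample, and no p-value was computed. Libraries are shown side by side to display spread, and intervals are 95% and cover counting error only.

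Cortical VIP interneurons are inhibitory cells that arise in the caudal ganglionic eminence and settle mostly in the upper layers. They contact other interneurons, above all those that make somatostatin, and so can release pyramidal cells from inhibition. They are known as targets of acetylcholine and serotonin arriving from subcortical nuclei. The peptide they are named for, vasoactive intestinal peptide, is a secreted neuropeptide read by the receptors encoded by Vipr1 and Vipr2.

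The 4 libraries held 5721, 5278, 3076 and 8327 barcodes with 40322155, 39336793, 19968985 and 57947155 UMIs. They contributed 45, 53, 20 and 42 members. Members made up 4.44%, 6.43%, 4.74% and 5.35% of the gated nuclei of libraries 1 to 4, with exact binomial intervals of 3.26 to 5.90, 4.85 to 8.33, 2.92 to 7.22 and 3.88 to 7.16, all of which overlap. The median member held 6992 UMIs (lowest 1915, highest 31684) and 2834 genes. Member depth differed between libraries, with medians of 5591, 7210, 9364 and 7326 UMIs, and so did the mitochondrial share, with medians of 1.82%, 1.55%, 0.741% and 2.92%. Of the 50 barcode sequences found in more than 1 library, 1 belonged to a member and none was shared by 2 members.

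The rule's own genes describe the members and support nothing further. Vip (chr10:5639218-5647617, plus strand; all positions are mm10, GENCODE M21) stood at 992 CPM (the UMIs of a gene as a share of all UMIs of the summed nuclei, scaled to parts per 1000000) in the members, and at 1055, 1058, 931 and 891 CPM in libraries 1 to 4. It was detected in 96.9% of members, with a median of 6 and a maximum of 55 UMIs per nucleus. Adarb2, which codes for an RNA-binding protein of the adenosine deaminase family and is widely used as a marker of this lineage, stood at 15140.4 CPM. Prox1, a transcription factor of caudal-eminence interneurons, stood at 226 CPM and was found in 74.4% of members. Calb2, the calcium-binding protein calretinin, stood at 22.9 CPM, with at least 1 UMI in only 22 members. All 4 rule genes were seen in 14 members, 3 of them in 108 and 2 in 38, and 5 members held Calb2 without Vip.

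The score ran without a gap through the cut, as the plot of scores by rank shows. The highest score was 2.74, the median member had 2.03, the lowest member 1.47 and the first nucleus outside 1.44. There were 12 members within 0.1 above the cut and 9 nuclei within 0.1 below it. The last 5 members held 3, 1, 3, 17 and 4 Vip UMIs, and the first 5 nuclei outside held 1, 2, 1, 1 and 1. Of the 434 nuclei that met the gate and had a UMI of Vip or Calb2, 227 scored below 1.

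**Figure D1:**
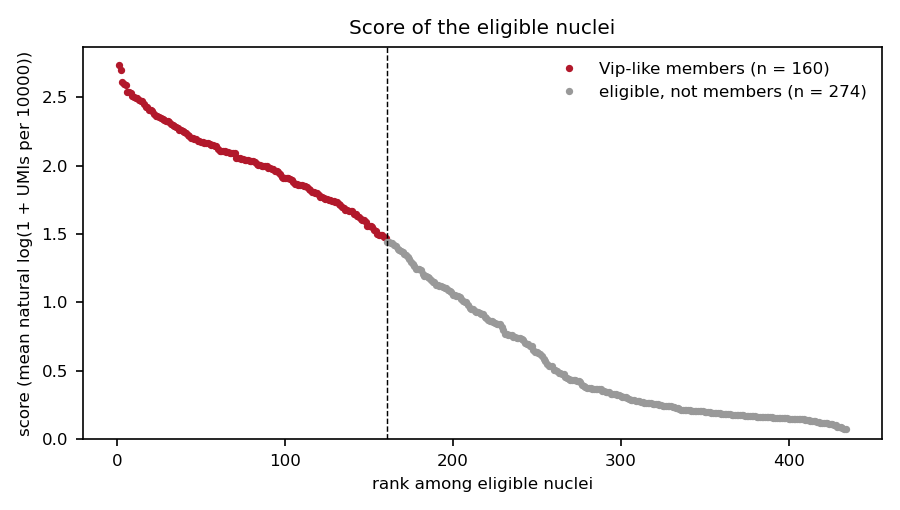
Score (mean natural log of 1 plus UMIs per 10000 over Vip, Adarb2, Calb2 and Prox1) of the 434 eligible nuclei in rank order, with the members to the left of the cut at rank 160. The scores fall smoothly from 2.74 through 1.47 and 1.44 at the cut, with no step there.

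The name Vip-like was checked against marker lists of other cell types. The members' summed level of oligodendrocyte markers was 262 CPM (111 to 427 over the libraries), against 1527 CPM in the other gated nuclei and 216 CPM in the Pvalb- and Sst-like nuclei defined below. Excitatory neuron markers stood at 318 CPM (95.2 to 476) against 230 CPM in Pvalb- and Sst-like nuclei, and astrocyte markers at 65.5 against 39.3 CPM. Cldn5 and Ly6c1 of endothelium, Adora2a of striatal neurons, Top2a of dividing cells and Chodl of long-range Sst cells were at 0 UMIs in all members. Other markers of the same lists were present. The endothelial list summed to 4.73 CPM against 1.98 CPM in Pvalb- and Sst-like nuclei, and the neuroblast list, which holds Top2a, to 116 against 112 CPM. The striatal list summed to 26.8 against 55.1 CPM and the Sst list to 306 against 903 CPM. Markers of Sncg-type interneurons, a related caudal-eminence class rich in Cck and Cnr1, stood at 827 CPM against 317 CPM in the other gated nuclei and 226 CPM in Pvalb- and Sst-like nuclei. Sncg itself was found in 1 member. It was also rare in the Sncg-like nuclei defined below, with a share of 7.78%. Its rarity therefore does little to separate the members from that class. Cck was found in 78.1% of members and 97.8% of Sncg-like nuclei, and Cnr1 in 72.5% and 85.6%. As the median over members of the natural log of 1 plus UMIs per 10000, Cck stood at 1.29 and Cnr1 at 1.19, Btbd11 of the Pvalb list at 0.999, Nrgn of the excitatory list at 0.915, Elfn1 of the Sst list at 0.642, and every marker of the Lamp5, astrocyte and microglia lists at 0. The part these markers play in the results below was not tested.

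The gate alone selects no pure class. By marker scores, 1123 of the 2884 other gated nuclei resembled glia (620 of them oligodendrocytes), 236 excitatory neurons and 165 striatal neurons, and 255 had no class. Erbb4 alone passed 1067 of them, and 19 of the members. The informative comparisons are therefore with the interneurons among them: 411 Pvalb-like and 319 Sst-like nuclei (pooled as 730, from the medial ganglionic eminence by type), 172 Lamp5-like and 90 Sncg-like nuclei. These classes are ranges of a score and not sharp types: 65 of the 730 and 15 of the 172 lay within 0.1 of another class. Median depths were 6992 UMIs in members, 9581.5 in Pvalb- and Sst-like, 8732 in Lamp5-like and 7459.5 in Sncg-like nuclei. Free RNA in droplets gives every nucleus a few foreign UMIs. As a guide to it, shares of members with a gene are set beside those in 660 ungated oligodendrocyte-like nuclei with a median of 3562 UMIs, where Vip itself was seen in 7.88% at 13.8 CPM.

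Calls of higher or lower rest on 3 conditions: 100 or more UMIs over both sets, a ratio of 2 or more upward or 0.5 or less downward, and 1 direction shared by 4 of 4 libraries. This is a rule of size and not a test. A gene can reach the UMI minimum through the set where it is high. The count of calls in a short list therefore does not describe that list as a whole. Against Pvalb- and Sst-like nuclei it called 303 of 9009 genes higher (3.36%) and 639 lower (7.09%), with a median log2 ratio over all genes of -0.08. Against Lamp5-like nuclei it called 140 of 4936 genes higher (2.84%) and 267 lower (5.41%). The whole set of other gated nuclei gave 279 of 12612 genes higher (2.21%) and 1360 lower (10.8%), and fewer were lower (609) when the comparison was confined to its 4 interneuron classes, an alternative added after the data were seen. The genes that define the comparison classes are left out of these counts. Ratios below are log2 of members over the named class, with the interval in parentheses. Many calls did not hold under a stricter mitochondrial limit of 1%, which left 84 eligible nuclei, 28 of them among the 160. All 84 then counted as members whatever their score, so this alternative changes the members as well as the limit. Which of these changes moved a call was not tested, here and wherever the 1% limit is named below. Of the named genes called and still given a value at this limit, 45 of 80 kept their call against Pvalb- and Sst-like nuclei. The numbers were 21 of 67 against Lamp5-like and 16 of 90 against all other gated nuclei.

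Serotonin receptors set the members apart from the other interneurons in both directions. Of 6 receptor genes with enough UMIs against Pvalb- and Sst-like nuclei, Htr4, Htr2c and Htr7 were higher and Htr2a was lower, beside background rates of 3.36% and 7.09%. The median log2 ratio of the 6 was 0.43, against -0.08 over all genes. Htr4 codes for a receptor that raises cyclic AMP through Gs. Its level was 248, 199, 312 and 219 CPM in the members of libraries 1 to 4 and 20.5, 17.0, 31.4 and 15.3 CPM in the Pvalb- and Sst-like nuclei. The lowest member library lay far above the highest of the other class, and the ratio was 3.59 (3.30 to 3.88). Lamp5-like and Sncg-like nuclei had 24.2 and 19.6 CPM, close to the Pvalb- and Sst-like level. At least 1 Htr4 UMI was seen in 56.9% (interval 48.8 to 64.7) of members, 12.2% of Pvalb- and Sst-like and 4.85% of oligodendrocyte-like nuclei. With each nucleus thinned to 1500 UMIs the shares were 25.6%, 1.92% and 1.46%.

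Htr2c (chrX:146962513-147197277, plus strand) codes for a Gq-coupled receptor that DOI activates. It stood at 334, 453, 264 and 236 CPM in the members against 49.4, 100.1, 61.9 and 55.8 CPM in Pvalb- and Sst-like nuclei, with no overlap between the libraries and a ratio of 2.31 (2.12 to 2.5). The share of nuclei with Htr2c was 57.5% against 20.1%, and 5.0% in oligodendrocyte-like nuclei. Sncg-like nuclei held more of it, 906, 520.2, 952 and 277 CPM by library, so a high level was not limited to the members. Lamp5-like nuclei had 114, 193, 61.4 and 52.8 CPM, below the members in every library, with a ratio of 1.54 (1.30 to 1.79).

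Htr2a (chr14:74640840-74709494, plus strand), another Gq-coupled target of DOI, went the opposite way. The members held 30 UMIs in all, or 12.7, 21.8, 42.3 and 25.6 CPM in libraries 1 to 4, against 44.6, 45.8, 54.2 and 55.0 CPM in Pvalb- and Sst-like and 55.1, 88.6, 117 and 58.3 CPM in Lamp5-like nuclei. Every member library lay below every library of both classes, library 3 of the members by little. The ratios were -1.08 (-1.67 to -0.54) and -1.60 (-2.23 to -1.02). The call against Pvalb- and Sst-like nuclei was lost without library 1 (-0.92). Detection in 10.6% of members stood near the 10.8% of oligodendrocyte-like nuclei at lower depth. By amount, 9 of the 17 members with Htr2a held 2 or more UMIs, and 46.7% of the members' Htr2a UMIs came from 5 nuclei. The share alone therefore does not tell members that express Htr2a from background. In 1 random thinning to 1500 UMIs, 0 of 160 members held a Htr2a UMI (exact upper bound 2.28%), against 8.08% of Pvalb- and Sst-like nuclei. The bound leaves out the spread between draws, and with 30 UMIs before thinning the 0 does not mean absence.

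Htr3a, the ion-channel serotonin receptor that marks caudal-eminence interneurons, fell below the UMI minimum and is named outside the rule for called genes. Members held 25 UMIs (19.7 CPM) in 18 nuclei, while all Pvalb- and Sst-like nuclei held 1 and all Lamp5-like nuclei 2. The ratio to Pvalb- and Sst-like nuclei was 7.22 (4.61 to 12.58), and the width of its interval comes from that single UMI. Sncg-like nuclei carried 13.0 CPM. No UMI of Htr3a was seen in the 660 oligodendrocyte-like nuclei, which allows a share of nuclei with a captured UMI of up to 0.557% at that depth (exact binomial bound) and sets no limit on nuclei that express the gene.

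Htr7, a second Gs-coupled receptor, stood at 33.9 against 15.3 CPM (1.15 (0.61 to 1.66)), and its call was lost without library 2 (0.82). Htr1f, a Gi-coupled receptor, was at 95.4, 65.4, 74.0 and 99.7 CPM in the members. It was not called against Pvalb- and Sst-like nuclei (134 CPM) and was lower against Lamp5-like nuclei (291 CPM, -1.80 (-2.11 to -1.50)). Htr2b differed little between classes, with 30.8, 37.8, 37.9 and 43.0 CPM in members, Pvalb- and Sst-like, Lamp5-like and Sncg-like nuclei, and its gene lies within Psmd1 on the other strand. The remaining receptors were nearly empty in the members, with 9 UMIs of Htr5a, 6 of Htr6, 3 of Htr1b, 2 of Htr1a and 0 of Htr1d. The plot of receptor levels by library sets Htr4 and Htr2c beside Htr2a.

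**Figure D2:**
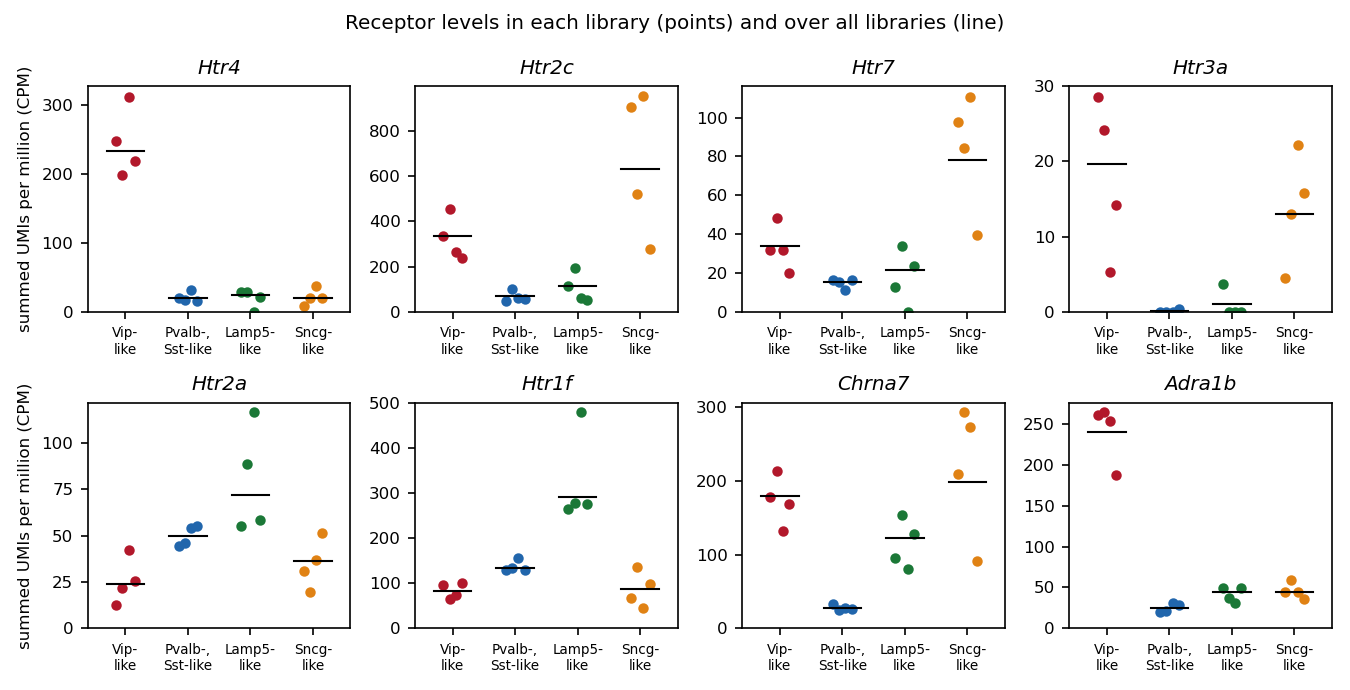
Levels (CPM) of Htr4, Htr2c, Htr7, Htr3a, Htr2a, Htr1f, Chrna7 and Adra1b in Vip-like, Pvalb- and Sst-like, Lamp5-like and Sncg-like nuclei, with a point for each of the 4 libraries and a line for the summed level. Htr4 and Adra1b have their highest line in Vip-like nuclei, Htr2c and Chrna7 in Sncg-like nuclei, and Htr2a has its lowest line in Vip-like nuclei.

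Receptors for other modulators followed. Chrna7 (chr7:63098692-63212569, minus strand), a subunit of nicotinic acetylcholine receptors that forms channels on its own, stood at 178, 213, 132 and 168 CPM in the members against 33.1, 24.6, 27.1 and 26.0 CPM in Pvalb- and Sst-like nuclei. The libraries of the 2 sets did not overlap, and the ratio was 2.72 (2.44 to 3.0). Lamp5-like (122 CPM) and Sncg-like nuclei (198 CPM) also held it, and the ratio to Lamp5-like nuclei, 0.56 (0.29 to 0.83), was under 2-fold. Other nicotinic subunits were thin, with 11 UMIs of Chrna4, 11 of Chrnb2, 7 of Chrna5 and 0 of Chrna2 in all members.

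Adra1b (chr11:43774606-43901210, minus strand), a Gq-coupled noradrenaline receptor, stood at 261, 264, 254 and 188 CPM in the members and 20.5, 20.8, 31.4 and 28.3 CPM in Pvalb- and Sst-like nuclei. It was seen in 62.5% (interval 54.5 to 70.0) of members, 18.4% of Pvalb- and Sst-like and 9.39% of oligodendrocyte-like nuclei. Lamp5-like and Sncg-like nuclei held 43.9 and 44.3 CPM, below every library of the members, with ratios of 3.27 (3.0 to 3.54) to Pvalb- and Sst-like and 2.45 (2.09 to 2.83) to Lamp5-like nuclei. Hrh2, a histamine receptor, was higher too, at 86.8 against 26.5 CPM (1.71 (1.36 to 2.05)). Over all genes 3.36% were higher and 7.09% lower in the comparison with Pvalb- and Sst-like nuclei. Of the 10 muscarinic, monoamine, opioid and cannabinoid receptor genes compared there, Adra1b and Hrh2 were higher and 2 were lower (list median 0.20). The lower ones were Oprd1, the delta opioid receptor, with 3 UMIs in all members against 851 (-5.57 (-7.85 to -4.02)), and Chrm2, a muscarinic receptor, with 13 against 1309 UMIs (-4.07 (-4.99 to -3.30)).

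Among peptide receptors, Npy1r, a receptor for neuropeptide Y, stood at 57.2, 65.4, 68.7 and 96.8 CPM in the members against 7.83, 6.14, 4.24 and 6.11 CPM (3.55 (3.03 to 4.09)). It was seen in 38.8% of members and 5.62% of Pvalb- and Sst-like nuclei, with 8.18% in oligodendrocyte-like nuclei. Hcrtr2, a receptor for orexin, stood at 102 against 10.0 CPM (3.34 (2.92 to 3.77)), while Lamp5-like nuclei held 162 CPM. Npy2r was under the UMI minimum there and is named after its values were seen, with 37 UMIs in 25 members against 5 UMIs in Pvalb- and Sst-like nuclei (5.47 (4.12 to 7.17)). Tacr1, the substance P receptor, and Cckbr, a cholecystokinin receptor, were lower, with 4 and 7 UMIs in the members and ratios of -3.23 (-5.12 to -1.86) and -1.42 (-2.77 to -0.33). In all, 2 of the 5 peptide receptor genes compared were higher and 2 lower, beside 3.36% and 7.09% over all genes.

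Of the receptors for the members' own peptide, Vipr1 had 16 UMIs (12.6 CPM, below the 30.2 CPM of oligodendrocyte-like nuclei) and Vipr2 3 UMIs. Adcyap1r1, the receptor for the related peptide PACAP, stood at 43.4 CPM against 54.3 in Pvalb- and Sst-like nuclei (-0.32 (-0.76 to 0.09)), and was not called.

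Besides Vip itself the members carried a set of secreted peptides. Of 5 peptide genes compared with Pvalb- and Sst-like nuclei, Tac2, Penk and Igf1 were higher and Cort was lower, with a list median of 2.85. Over all genes 3.36% were higher and 7.09% lower, with a median of -0.08. The 5 are part of 20 listed peptide genes, so the count and median do not describe peptides as a group. Tac2 (chr10:127724478-127731768, plus strand), the precursor of neurokinin B, stood at 92.2, 96.9, 74.0 and 39.9 CPM in the members of libraries 1 to 4 against 2.41, 7.08, 3.39 and 2.29 CPM, with no overlap and a ratio of 4.32 (3.71 to 4.97). Its level was 35.2 CPM in Sncg-like and 10.4 CPM in Lamp5-like nuclei. Detection was 28.8% in members and 2.12% in oligodendrocyte-like nuclei. Penk (chr4:4133531-4138819, minus strand), the enkephalin precursor, stood at 89.0, 43.6, 42.3 and 59.8 CPM against 15.1, 9.45, 2.54 and 5.35 CPM (2.85 (2.35 to 3.36)), and was found in 30.0% of members and 8.33% of oligodendrocyte-like nuclei. Against all other gated nuclei its call was lost without library 4 (0.73), and its sign turned with the mitochondrial limit of 1% (-0.84).

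Igf1 (chr10:87858265-87937042, plus strand), insulin-like growth factor 1, stood at 448, 438, 693 and 504 CPM in the members against 37.9, 32.6, 27.1 and 29.4 CPM. The ratio was 3.97 (3.75 to 4.19). It was found in 85.0% (interval 78.5 to 90.1) of members, 20.7% of Pvalb- and Sst-like and 1.36% of oligodendrocyte-like nuclei. Lamp5-like and Sncg-like nuclei lay between, at 125 and 203 CPM.

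Crh, corticotropin-releasing hormone, had too few UMIs to be called and is named after its values were seen. It stood at 31.8, 29.1, 68.7 and 34.2 CPM in the members against 0.602, 1.42, 0 and 2.67 CPM in Pvalb- and Sst-like nuclei, 47 against 11 UMIs, with a ratio of 4.67 (3.71 to 5.77). It was found in 20 members.

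Cck, the cholecystokinin precursor, helped to define the Sncg-like class and is therefore only described. It stood at 432, 446, 153 and 251 CPM in the members, with libraries 3 and 4 below libraries 1 and 2, and at 169 CPM in Pvalb- and Sst-like, 426 CPM in Sncg-like and 272 CPM in oligodendrocyte-like nuclei. The share of members with Cck, 78.1%, was at the background, since 77.6% of the shallower oligodendrocyte-like nuclei held it. Detection alone therefore does not single out members that make Cck. By amount, 84 members held 2 or more Cck UMIs, 6 held more than 10 and the highest held 37. Sst was detected in 48.1% of members and 38.9% of oligodendrocyte-like nuclei, a share also read as background, and stood at 74.9 CPM against 588 CPM in Sst-like nuclei. Npy stood at 86.8 CPM and was lower than in Lamp5-like nuclei (206 CPM, -1.25 (-1.57 to -0.94)), a call lost without library 2 (-0.99). Tac1, a marker used for the Pvalb-like class, was at 20 UMIs or 15.8 CPM. Cort, close kin of somatostatin, had 9 UMIs (-1.81 (-2.96 to -0.85)). Pnoc, the nociceptin precursor, had 35.0, 43.6, 10.6 and 5.70 CPM by library and no call, since its sign differed in 1 library.

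**Figure D3:**
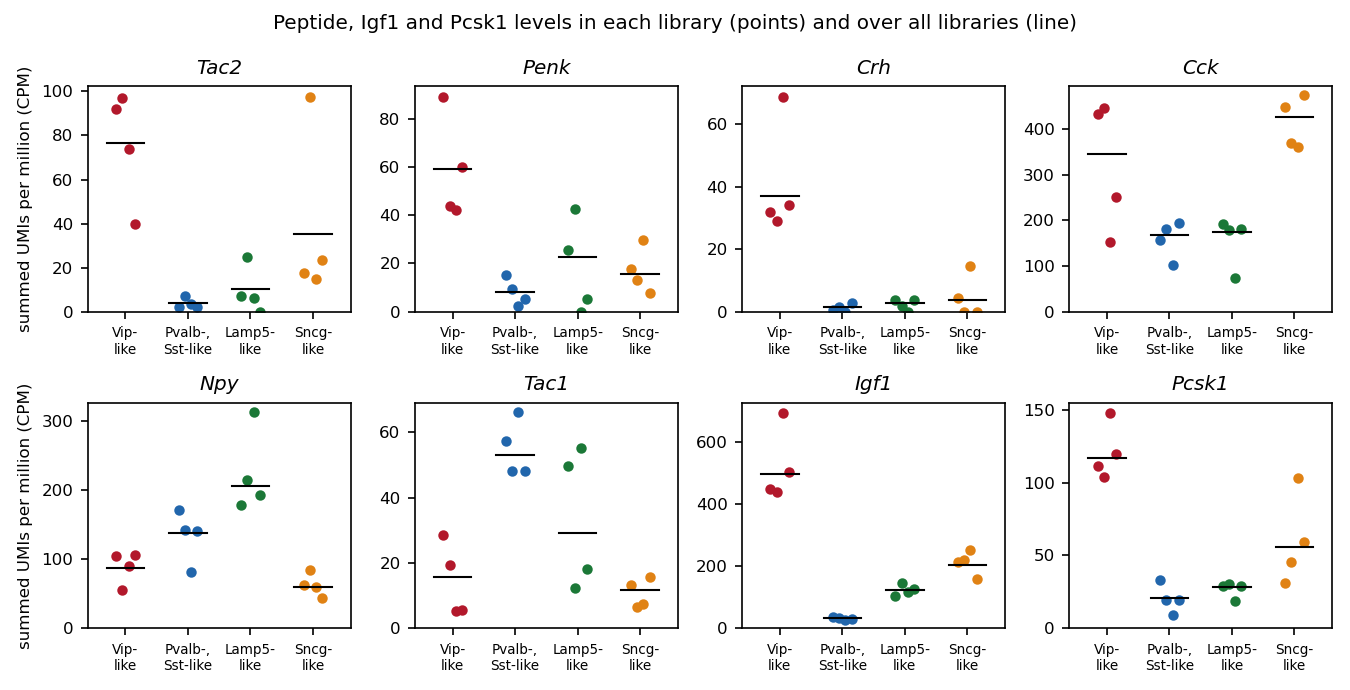
Levels (CPM) of Tac2, Penk, Crh, Cck, Npy, Tac1, Igf1 and Pcsk1 in Vip-like, Pvalb- and Sst-like, Lamp5-like and Sncg-like nuclei, with a point per library and a line for the summed level. Every library of Vip-like nuclei lies above every library of Pvalb- and Sst-like nuclei for Tac2, Penk, Crh, Igf1 and Pcsk1.

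Transcription factors that pattern the ganglionic eminences differed in both directions. Of 23 compared with Pvalb- and Sst-like nuclei, 6 were higher and 6 lower, with a list median of 0.77. Over all genes 3.36% were higher and 7.09% lower, with a median of -0.08. Lhx6, which specifies medial-eminence interneurons, had 1 UMI in all members against 460 (-6.27 (-11.57 to -3.78)). Sox6, which acts below it, stood at 60.4, 7.27, 0 and 5.70 CPM in the members against 835, 836, 909 and 902 CPM (-5.52 (-6.17 to -4.95)), and was seen in 4.38% against 93.7% of nuclei. Library 1 held most of the members' Sox6. Satb1 and Bcl11b were also lower, at -2.98 and -1.49.

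On the higher side, Nfib stood at 451, 455, 391 and 487 CPM in the members against 62.0, 68.5, 39.0 and 70.3 CPM (2.85 (2.67 to 3.02)), but at 742 CPM in Lamp5-like and 598 CPM in Sncg-like nuclei. Its relative Nfix stood at 104 against 23.0 CPM (2.18 (1.84 to 2.52)). Nr2f2 (COUP-TFII, a caudal-eminence factor) stood at 37.1 against 7.79 CPM (2.25 (1.67 to 2.83)), and Dlx1, common to forebrain interneurons, at 63.9 against 19.7 CPM (1.70 (1.29 to 2.10)). Zbtb16 and Npas3 were higher by 1.66 and 1.07. Nr2e1, under the UMI minimum in that comparison and singled out after its values were seen, had 43 UMIs in 33 members and 4 in Pvalb- and Sst-like nuclei (6.01 (4.54 to 7.94)).

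Genes that neurons switch on with activity were higher in the members than in Pvalb- and Sst-like nuclei wherever they passed the rule. Of 10 immediate early genes compared 5 were higher and none lower (list median 0.98). Of 8 genes of the late activity list 4 were higher and none lower (list median 1.48). Over all genes 3.36% were higher and 7.09% lower, with a median of -0.08. Nr4a1, a nuclear receptor induced within minutes of activity, stood at 108, 107, 111 and 85.4 CPM in the members against 31.3, 23.6, 28.8 and 27.1 CPM, with no overlap (1.90 (1.57 to 2.22)). Npas4, a factor induced by calcium entry, stood at 50.9, 33.9, 21.1 and 22.8 against 15.1, 8.97, 11.9 and 8.02 CPM (1.67 (1.09 to 2.23)). Fos stood at 44.5, 12.1, 15.9 and 22.8 against 15.7, 9.92, 7.63 and 8.41 CPM (1.20 (0.54 to 1.82)), and member library 2 lay within the range of the other class. Fosl2 and Btg2 were higher by 1.64 and 1.48. Against Lamp5-like nuclei 3 immediate early genes could be compared and none was called, with Nr4a1 at 0.69 (0.31 to 1.06) and Npas4 at -0.02 (-0.62 to 0.57). The direction was mixed against all other gated nuclei. There 4 of 17 immediate early genes were higher and 2 lower (list median 0.13). The late list, with 13 genes compared, gave 4 calls upward and 2 downward (list median -0.36). In that comparison 2.21% of all genes were higher and 10.8% lower, with a median of -0.14. Oligodendrocyte-like nuclei held 31.4 CPM of Npas4 and 14.1 CPM of Fos, against 33.1 and 23.7 in the members, so these low counts are close to the free-RNA level.

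Among the late genes, Sorcs3, a sorting receptor that is induced by activity, stood at 1230.3, 1538, 1814 and 1532 CPM in the members against 133, 138, 86.4 and 104 CPM (3.68 (3.56 to 3.80)). Pcsk1 (chr13:75089826-75134861, plus strand), the convertase that cuts peptide precursors in secretory granules, stood at 111, 104, 148 and 119.6 against 33.1, 19.4, 9.32 and 19.5 CPM (2.48 (2.15 to 2.82)). Inhba, an activin subunit, was higher by 2.40 (1.91 to 2.89), and Igf1 was the fourth. Pcsk1, Sorcs3 and Igf1 were also higher than in Lamp5-like nuclei, by 2.03, 1.89 and 2.00. Since the mice of the libraries are not known, these levels cannot be related to DOI.

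Cyclic AMP and calcium act on many such genes through the factor CREB, which binds DNA at a site built from the half-site TGACG or, on the other strand, CGTCA. The 120 bases upstream of the annotated start are shown for Vip, the gene the class is named for, and for Fos, Nr4a1 and Pcsk1, the 3 called activity genes that hold the half-site there (RefSeq, GRCm38.p6, plus strand, 5′ to 3′), with half-sites in capitals. Starts are those of RefSeq: for Vip and Fos they match the GENCODE gene start, while for Nr4a1 and Pcsk1 they lie downstream of it, so part or all of those windows is inside the gene as GENCODE draws it.
Vip (chr10:5639098-5639217): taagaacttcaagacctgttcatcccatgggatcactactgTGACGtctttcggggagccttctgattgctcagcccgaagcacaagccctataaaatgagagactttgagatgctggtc
Fos (chr12:85473770-85473889): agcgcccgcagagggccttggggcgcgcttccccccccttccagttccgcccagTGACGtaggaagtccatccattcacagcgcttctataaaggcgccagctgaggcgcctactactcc
Nr4a1 (chr15:101266726-101266845): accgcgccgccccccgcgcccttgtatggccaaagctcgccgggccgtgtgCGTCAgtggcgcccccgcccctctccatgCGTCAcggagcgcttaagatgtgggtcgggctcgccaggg
Pcsk1 (chr13:75089737-75089856): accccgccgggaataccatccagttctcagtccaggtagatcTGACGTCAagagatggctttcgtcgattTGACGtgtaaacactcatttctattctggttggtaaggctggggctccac
The Vip window has 1 half-site, starting 79 bases before the RefSeq start, Fos 1 at 66, Nr4a1 2 at 69 and 40, and Pcsk1 3 at 78, 75 and 50. The first 2 of Pcsk1 overlap on opposite strands and together form the full palindrome. Among all 32851 promoter windows of this length, 11.7% hold a half-site on either strand. Of the 9 activity genes called higher against Pvalb- and Sst-like nuclei, 3 hold it. Of the 9 compared but not called, 6 had a window in the table and 3 of those hold it. A match describes letters and not a bound site.

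Some ion channel and transmitter receptor genes differed between the members and the Pvalb- and Sst-like nuclei. In the channel lists and the glutamate and GABA-A receptor lists most genes were not called. Over all genes 3.36% were higher and 7.09% lower in this comparison, the shares to set beside the counts here and in the paragraphs on adhesion, guidance and release genes. Of 27 potassium channel genes compared 5 were higher and 6 lower (list median -0.36). Kcnc2, a subunit of the Kv3 channels that allow fast spiking, stood at 575, 920.2, 830.1 and 686 CPM in the members against 3665, 4087, 3897 and 3680.2 CPM (-2.34 (-2.43 to -2.25)), and Kcnc1 was lower as well (-1.14 (-1.40 to -0.89)). Kcnma1, the large-conductance calcium-activated channel, was lower by -1.23 (-1.34 to -1.12). Kcnt2, a sodium-activated channel, stood at 537, 855, 1116 and 939.7 CPM against 110.2, 135, 89.8 and 115 CPM (2.86 (2.73 to 2.99)). Kcnq5, a subunit of M-type channels, Kcnn2, a small-conductance calcium-activated channel, and Kcnb2, a delayed rectifier, were higher by 1.83, 1.79 and 1.63. Kcna6, a Kv1 subunit, was lower by -1.14, a call lost without library 3 (-0.96).

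A pair of auxiliary subunits of calcium channels went opposite ways. Cacna2d1 stood at 394, 375, 344 and 555 CPM in the members against 50.6, 70.8, 38.1 and 59.2 CPM (2.89 (2.71 to 3.08)). Cacna2d2 had 11 UMIs in the members against 1557 (-4.57 (-5.57 to -3.72)). Lamp5-like nuclei held more Cacna2d1 than the members (1273 CPM, -1.58 (-1.72 to -1.45)). Of 18 sodium and calcium channel genes, Cacna2d1 was the 1 called higher, and Cacna2d2, Scn9a and Cacna1a were the 3 called lower, the latter at -1.51 and -1.10.

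Of 15 ionotropic glutamate receptor genes 2 were higher and 5 lower (list median 0.03). Among AMPA subunits, Gria3 stood at 362, 235, 275 and 350.3 CPM in the members against 920.4, 887, 998 and 897 CPM (-1.59 (-1.74 to -1.44)), and Gria1 and Gria4 were lower by -1.19 and -1.01. Kainate subunits split: Grik4 was higher (207 against 49.1 CPM, 2.08 (1.85 to 2.31)) and Grik1 and Grik3 were lower (-1.30 (-1.40 to -1.20) and -1.88 (-2.26 to -1.52)). Grm8, a presynaptic metabotropic receptor, stood at 725, 1007, 1438 and 1042 CPM against 190.3, 200.3, 117 and 144 CPM (2.61 (2.5 to 2.72)) and was also higher than in Lamp5-like nuclei (2.38 (2.21 to 2.56)), although oligodendrocyte-like nuclei held 710.1 CPM. Grm3, a receptor that glia also make, was lower (-1.31 (-1.61 to -1.03)), a direction that turned with the mitochondrial limit of 1% (0.36). Of 11 GABA-A subunit genes none was higher and 2 were lower. Gabrd, the extrasynaptic delta subunit, had 15 UMIs in the members (-1.76 (-2.61 to -1.01)), and Gabra3 was at -1.07, a call lost without library 2 (-0.79).

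Adhesion and guidance genes were called in both directions. Of 25 synaptic adhesion genes 4 were higher and 3 lower (list median 0.04). Sdk1, which codes for a homophilic adhesion protein of synapses, stood at 874, 906, 1592 and 1162 CPM in the members against 202, 167, 247 and 227 CPM (2.37 (2.26 to 2.47)), and its relative Sdk2 was higher by 2.33. Ptprd, a phosphatase that organises synapses, was higher by 1.81. Il1rapl2 (22.1 against 709.9 CPM, -5.01 (-5.60 to -4.47)), Cntnap5a (-1.77) and Cntnap4 (-1.60) were lower.

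Of 36 cadherin and guidance genes 8 were higher and 7 lower (list median -0.01). Sema3c, a secreted semaphorin, stood at 139.9, 131, 89.9 and 96.8 CPM against 5.42, 6.14, 6.78 and 7.64 CPM (4.15 (3.68 to 4.65)). Its relative Sema3a had 7 UMIs in the members against 738 (-4.14 (-5.46 to -3.09)), so the 2 ligands of the same family went opposite ways. Nrp1, a semaphorin receptor, and Epha3, an ephrin receptor, were higher by 2.85 and 2.36. Slit2, a secreted repellent, stood at 21.3 against 449 CPM (-4.40 (-5.00 to -3.85)), and Unc5d and Cdh9 were lower by -2.35 and -2.10.

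Of 18 presynaptic release genes 3 were higher and 3 lower (list median 0.09). Synpr, synaptoporin of synaptic vesicles, stood at 1357, 1867, 1739.6 and 1387 CPM against 578, 553, 501 and 668 CPM (1.43 (1.35 to 1.51)), which sums 1236 CPM in Sst-like and 105 CPM in Pvalb-like nuclei. Cplx2 and Syt6 were higher by 1.68 and 2.34. Syt2, the fast calcium sensor of Pvalb cells, was lower (9 UMIs, -2.71 (-3.86 to -1.77)). Unc13c had 6 UMIs, all of them in 1 nucleus of library 1, against 1097 UMIs (-4.94 (-6.38 to -3.81)), and its ratio turned to 0.65 with the mitochondrial limit of 1%. Calb1, the calcium buffer calbindin, was lower (-2.70 (-3.40 to -2.08)) and Necab1, another calcium-binding protein, higher (2.11 (1.91 to 2.32)).

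**Figure D4:**
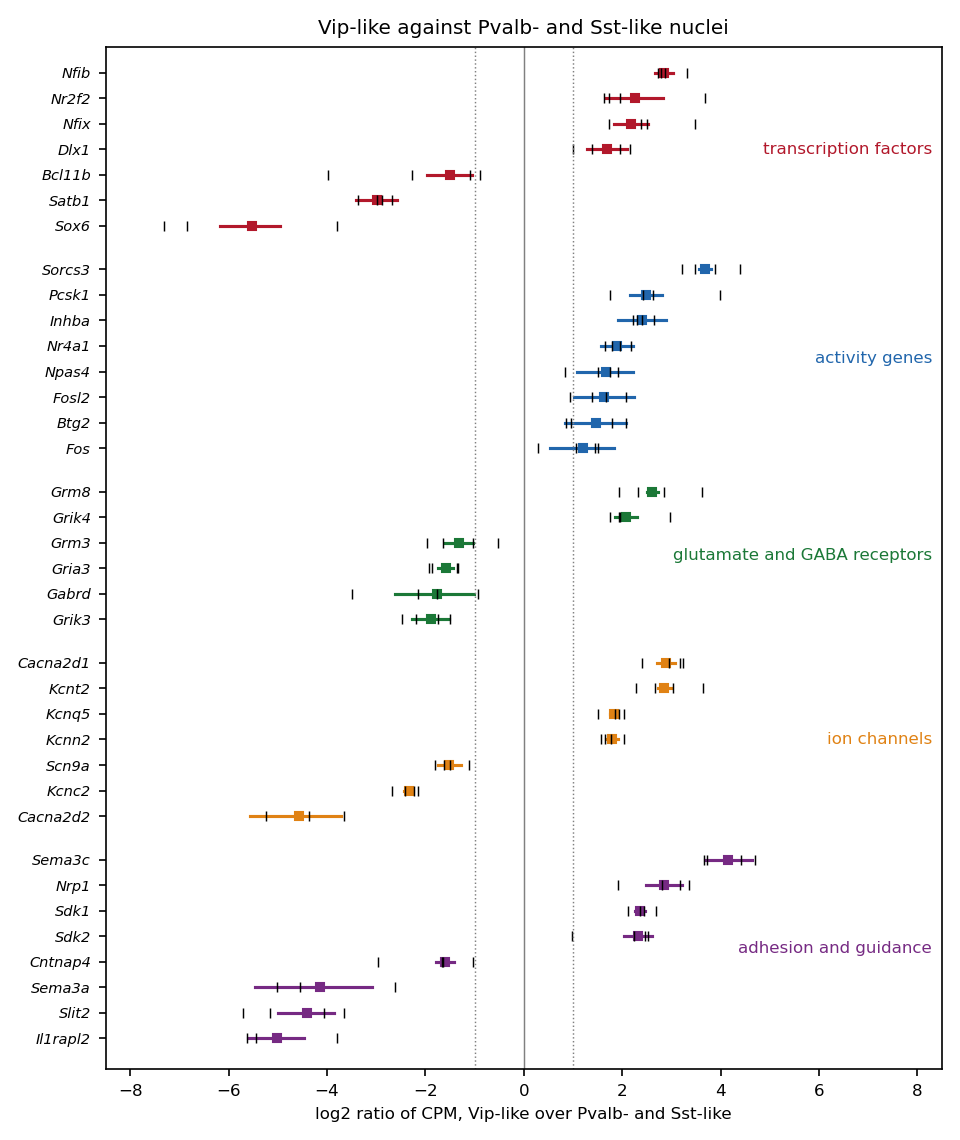
Log2 ratios of Vip-like over Pvalb- and Sst-like nuclei for 36 called genes in 5 groups, as squares with 95% counting intervals and a tick per library, with dotted lines at 2-fold either way; a library with 0 UMIs on a side has no tick. Intervals widen to the left of -4, where members hold few UMIs.

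Over all genes with at least 300 UMIs and with the rule's own genes and the class markers left out, the largest called ratio belonged to Egfr (chr11:16752203-16918158, plus strand), the epidermal growth factor receptor. It stood at 283, 402, 592 and 509.7 CPM in the members and at 15 UMIs in all 730 Pvalb- and Sst-like nuclei (7.76 (7.03 to 8.61)), and was found in 70.6% against 1.51% of nuclei. Lamp5-like nuclei held it too (308 CPM, 0.48 (0.31 to 0.66)), but Sncg-like nuclei little (35.2 CPM). Sorcs1, kin of Sorcs3, stood at 1359.8 against 72.7 CPM (4.22 (4.09 to 4.37)). Further large ratios were those of Ust (3.96), a sulfotransferase, Pbx3 (3.88), a homeodomain factor, Cpne7 (3.45), a copine, and Vwc2l (3.08). Angpt1, the angiopoietin ligand of endothelial Tek, lies under that minimum and is named after its values were seen: it stood at 181, 109, 153 and 177 CPM in the members against 2.77, 8.78 and 7.82 CPM in Pvalb- and Sst-like, Lamp5-like and Sncg-like nuclei, and at 22.6 CPM in oligodendrocyte-like nuclei.

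On the lower side the long noncoding RNA Tmem132cos had 1 UMI in the members against 1038 (-7.44 (-12.75 to -4.96)). Moxd1, a monooxygenase, had none against 558 UMIs, at least 31.1-fold lower with a floor of 3 UMIs over the members. Eya4, Myo1e, Klhl1 and Rerg held 4, 5, 3 and 4 UMIs in all members, with ratios of -5.58, -4.83, -4.70 and -4.57. Nxph1, a neurexin ligand, was abundant enough to compare by library, at 168, 269, 5.29 and 219 CPM in the members against 2789, 3148, 2764 and 2786 CPM (-3.92 (-4.11 to -3.73)). Lamp5-like nuclei held it too, at 2160 CPM.

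Lamp5 interneurons, among them the neurogliaform cells, are another class that comes mostly from the caudal ganglionic eminence. Against them, where 2.84% of all genes were higher, the members were higher in Sdk1 (1071 against 87.3 CPM, 3.62 (3.38 to 3.86)), Htr4 (3.27 (2.81 to 3.76)), Vwc2l (3.25 (2.80 to 3.72)) and Synpr (2.97 (2.81 to 3.13)). They were also higher in Slc44a5, a choline transporter-like gene (778 against 124 CPM, 2.65 (2.44 to 2.87)), which Sncg-like nuclei held at 1065 CPM. Penk, Tac2 and Igf1 were higher by 1.39, 2.87 and 2.00, 3 of the 4 peptide genes compared, with Npy the lower one. Nr3c2, the mineralocorticoid receptor, stood at 689 against 309 CPM (1.16 (1.00 to 1.31)), and at 153 CPM in Pvalb- and Sst-like nuclei (2.17 (2.04 to 2.29)).

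The members were lower than Lamp5-like nuclei in Rarb, a retinoic acid receptor (13.4 against 194 CPM, -3.85 (-4.65 to -3.15)), Nxph1 (-3.50 (-3.69 to -3.31)), Tox3 (-3.06 (-3.57 to -2.59)) and Bcl11b (-2.66 (-3.14 to -2.22)). Grin2a, an NMDA receptor subunit, stood at 868, 509, 709 and 789 CPM in the members against 2724 CPM (-1.95 (-2.05 to -1.85)), and did not differ from Pvalb- and Sst-like nuclei by 2-fold (-0.24 (-0.34 to -0.14)). Gabra5 and Gabra4 were lower by -1.41 and -1.34, and Oprm1, the mu opioid receptor, by -1.46 (-1.83 to -1.10).

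Within the 160 members detection varied from gene to gene. Igf1 was detected in 136, Cnr1 in 116, Htr2c in 92 and Htr4 in 91 members, and Cck in 125, a share at its background. Penk was found in 48, Tac2 in 46, Cxcl14 (a chemokine) in 40, Reln (the secreted protein reelin) in 36, Calb2 in 22, Crh in 20, Htr3a in 18 and Mybpc1 in 17. Of the shallower oligodendrocyte-like nuclei 20.6% held Cnr1, 4.09% Cxcl14, 4.39% Reln, 1.36% Crh and 0.152% Mybpc1. Chat, choline acetyltransferase, which makes acetylcholine, was found in 14 members (30 UMIs), against 1 UMI in all Pvalb- and Sst-like and 0 in oligodendrocyte-like nuclei. Its levels by library were 22.3, 2.42, 68.7 and 25.6 CPM, so library 3 was highest and library 2 lowest, and Slc18a3 lies within the gene on the same strand. Crispld2 had 21 UMIs in 12 members and 0 in the 2884 other gated nuclei, which allows a share with a captured UMI of up to 0.128% (exact bound) and does not limit expression. Chat and Crispld2 are named after their values were seen. Of Crh, Tac2, Penk, Calb2 and Chat, 53 members held none, 69 held 1, 33 held 2 and 5 held 3.

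Some pairs were seen together more often than others, as descriptions of these nuclei and with no test. Of the 14 members with Chat, 14 held Igf1, 13 held Htr4 and 4 held Calb2, while 0 held Reln and 0 held Mybpc1. Of the 20 with Crh, 13 held Cxcl14, 10 held Tac2 and 1 held Calb2. Of the 18 with Htr3a, 10 held Tac2, 10 held Cxcl14 and 9 held Reln. Of the 25 with Npy2r, 13 held Reln and 0 held Mybpc1. Htr4 and Htr2c were together in 50 members. Depth moves with detection: members with Htr3a had a median of 10315.5 UMIs and those without 6660.5, and the part of depth in the shared detection was not tested. In Mybpc1, 65.3% of the members' UMIs came from 5 nuclei.

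**Figure D5:**
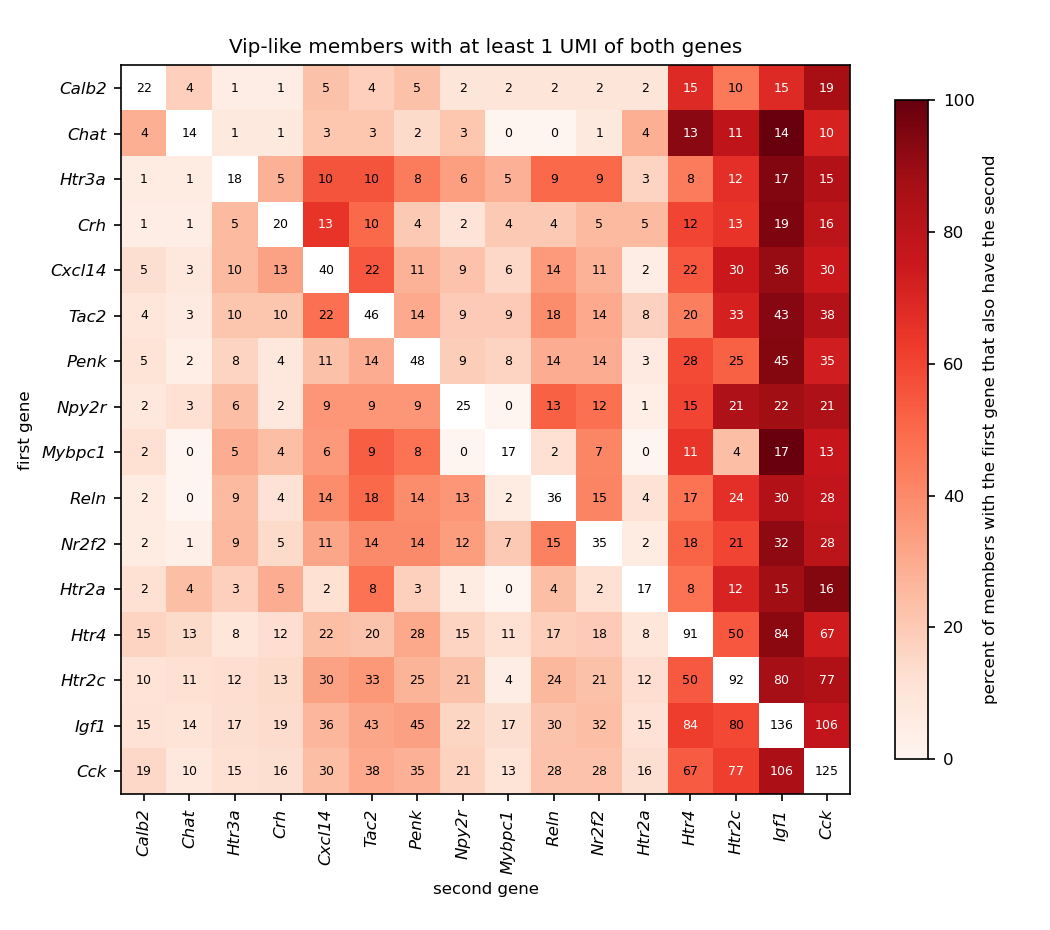
Co-detection of 16 genes among the 160 members: each cell gives the number of members with at least 1 UMI of both genes, and its colour the percent of members with the row gene that also hold the column gene. The Chat row is filled at Igf1 (14) and Htr4 (13) and empty at Reln and Mybpc1.

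The 22 members with Calb2 were set against the 138 without it, a split known from the literature on VIP cells as bipolar calretinin cells and Cck cells. The rule called 10 of 2190 genes higher (0.457%) and 41 lower (1.87%). The count of higher genes was 3 without library 2, 19 without library 3 and 16 without library 4, and that of lower genes 68 without library 3. Kirrel3, an adhesion protein, stood at 403 against 1580.4 CPM (-1.97 (-2.34 to -1.62)), a call lost with 230 members (-0.66) and with the mitochondrial limit of 1% (-0.11). Cnr1, the cannabinoid receptor typical of Cck cells, stood at 158 against 449.6 CPM (-1.51 (-2.13 to -0.95)). Cck itself was not called (274 against 356 CPM, -0.37 (-0.84 to 0.07)), and 19 of the 22 held it. Reln had 2 against 185 UMIs (-3.85 (-6.91 to -1.98)) and Unc5d 1 against 190 (-4.89 (-10.20 to -2.40)), both lower with Calb2. Reln was detected in 2 of the 22 and in 34 of the 138. Of all the members' Reln UMIs 57.2% came from 5 nuclei, a clumping that its interval does not cover. The ratio of Unc5d turned to 0.46 with the mitochondrial limit of 1%, and with 230 members neither Reln nor Unc5d was called. Sema3c was lower too (-1.66 (-3.0 to -0.58)), a call lost with means over nuclei (-0.91). Trhde, an ectoenzyme that breaks down a peptide hormone, was higher (526 against 224 CPM, 1.23 (0.86 to 1.58)), a call lost without library 1 (0.91) and with 230 members (0.85). Of the 10 named genes called in this split, 3 kept their call with 230 members, 5 with means over nuclei and 6 without library 4. Calb2 adds to the score and alone meets the Vip or Calb2 condition. Members with Calb2 could therefore enter at lower levels of the other rule genes than members without it. With and without Calb2, Adarb2 stood at 12590 and 15539 CPM, Prox1 at 245 and 223 CPM and Vip itself at 1063 and 981 CPM. The part of this selection in the split was not tested. Htr4 stood at 432 against 202 CPM (1.09 (0.69 to 1.48)), higher in 3 of 4 libraries and so not called, and 15 of the 22 held it. The split rests on single UMIs, since 5 of the 22 held 2 or more Calb2 UMIs and the rest 1, and the median depth was 7596.5 UMIs with Calb2 and 6861 without.

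The reporter was sparse. TREmcherry, the reporter feature of the matrix, had 18 UMIs in 17 members, with 1, 7, 1 and 9 UMIs in libraries 1 to 4, which is 14.2 CPM. The other gated nuclei held 12.2 CPM, and the ratio was 0.22 (-0.56 to 0.90), with no call. Detection in 10.6% of members compares with 8.22% of Pvalb- and Sst-like and 6.06% of oligodendrocyte-like nuclei, and after thinning to 1500 UMIs with 2.5%, 1.51% and 2.59%. The shares in oligodendrocyte-like nuclei were of similar size, so the members' share is read as background. The tTA feature had 6 UMIs in members.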

How the data were processed

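Nuclei of mouse medial prefrontal cortex were profiled by 3' droplet sequencing, per the labels. The values deposited by the authors are UMI counts, whole numbers per feature and barcode in 1 pooled matrix of 22402 barcodes, 32287 features and 157575088 UMIs, with no normalization. Cell Ranger 7.1.0 and genome build mm10 are named per the submitters' processing notes. How barcodes were chosen before deposit is not given in the sources used here. Barcode endings separate 4 libraries that no source used here ties to a mouse, so the matrix counted as 1 sample: no group was compared, no p-value was made, and nuclei were not treated as replicates.

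The members, gene lists and calling rule were chosen with earlier results of these data known. Kept nuclei, gate and score are as given above. Other gated nuclei were classed by the highest mean z-score over 11 marker lists, with at least 2 markers detected, and otherwise had no class. UMIs were summed per set of nuclei, and ratios of CPM have exact conditional binomial 95% intervals. Shares have Clopper-Pearson 95% intervals. A side with 0 UMIs was set to a floor of 3. Genes of the member rule, and markers of the classes compared, stayed out of counts of called genes. Doublets were scored per library with Scrublet in scanpy 1.11.5. The 7 members above a score of 0.25 were kept, and left out as an alternative. Thinning drew 1500 UMIs per nucleus and left out shallower nuclei.

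Genes were eligible to be named by rule: the rule and gate genes, every serotonin, nicotinic, VIP and PACAP receptor and neuropeptide gene with at least 50 UMIs in members or 100 in the nuclei compared, at most 4 called genes per direction in other lists, and the 12 largest called ratios per direction among genes with at least 300 UMIs. Some eligible genes are not reported here. Gria4 was named outside the rule, after its values were seen. Other genes named outside the rule are marked as such, or are class markers, or are members of those 4 lists whose low UMI counts are stated. Positions came from GENCODE M21 (496 of 498 genes matched) and promoters from RefSeq on GRCm38.p6. Python 3.11.15, numpy 2.4.6, scipy 1.17.1, pandas 2.3.3 and matplotlib 3.10.9 were used.

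Simulated data with known changes tested the rule. They were drawn per library with counting error only (Poisson counts) and with no spread between nuclei. Real UMIs can clump in a few nuclei, so the counts below do not cover calls that clumping makes or loses. Against Pvalb- and Sst-like nuclei the rule called 63 of 63 genes changed 3-fold, 57 of 58 changed 4-fold and 23 of 8842 unchanged genes, and against Lamp5-like nuclei 66 of 66, 65 of 66 and 0 of 4748. For all other gated nuclei it called 58 of 64, 59 of 61 and 159 of 12419, and for the Calb2 split 47 of 53, 54 of 55 and 13 of 2015. Genes changed 1.5-fold were called in 3 of 64, 0 of 63, 5 of 65 and 4 of 54 cases, in the same order of comparisons. Alternatives covered the mitochondrial and gene limits, the number of members, the gate, the Vip condition, doublets, the UMI minimum, thinning, means over nuclei, equal library weights and each library left out.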

Additional observations from a re-analysis of the deposited data

How the results depend on the processing

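No paired analysis was possible because the barcode endings carry no replicate number and no groups were compared. Counts of called genes moved under several alternatives. With a mitochondrial limit of 1%, all 84 eligible nuclei counted as members whatever their score, so the members changed along with the limit. This limit gave 20 higher and 96 lower genes against all other gated nuclei, and 155 and 152 against Pvalb- and Sst-like nuclei. It gave 60 and 32 against Lamp5-like nuclei, and 6 and 16 for the Calb2 split. Under it, ratios that turned sign were, against other gated nuclei, Crhbp 0.37, Fosl2 -0.51, Gria3 0.045, Grik3 0.046, Grin3a 0.064, Inhba -0.32, Mybpc1 -0.17, Nr4a1 -0.31, Penk -0.84, Slc13a1 0.98 and Unc13c 0.19, with Itpr2 0.45 turned by the comparison with 4 interneuron classes. Against Pvalb- and Sst-like nuclei Grm3 0.36, Itpr1 0.027, Unc13b 0.10 and Unc13c 0.65 turned. Against Lamp5-like nuclei Grm3 0.21, Il1rapl2 1.75, Kcnd2 0.11, Ntng1 0.086, Prox1 -0.13, Satb1 0.72, Sox6 2.60 and Unc13c 0.64 turned, and in the Calb2 split Unc5d 0.46. Taking 230 members gave 737 lower genes against all other gated nuclei and 172 against Lamp5-like nuclei, and 100 members gave 1 higher and 26 lower for the Calb2 split. A minimum of 300 UMIs gave 805 lower, then 149 and 347, 75 and 129, and 1 and 8 higher and lower genes in the same order of comparisons, since fewer genes are tested. With no minimum there were 616 and 1125 against Pvalb- and Sst-like, 482 and 768 against Lamp5-like nuclei, and 115 and 371 for Calb2. Thinning to 1500 UMIs gave 101 and 245, 59 and 69, and 0 and 9. The 4 interneuron classes alone gave 609 lower genes. Leaving out a library in turn gave 284 to 311 higher and 1313 to 1464 lower genes against all other gated nuclei, 250 to 281 and 579 to 635 against Pvalb- and Sst-like, 117 to 131 and 221 to 244 against Lamp5-like nuclei, and 3 to 19 and 28 to 68 for the Calb2 split. Of the named called genes with a value against Pvalb- and Sst-like nuclei, 88 of 90 kept their call without library 1, 85 of 88 without library 2, 93 of 95 without library 3 and 90 of 91 without library 4, but 45 of 80 at the 1% limit. Against Lamp5-like nuclei 59 of 77 and against all other gated nuclei 91 of 113 kept it with 230 members. Where no cause is given, the cause was not tested. Depth limits rare receptors and peptides: the members hold 1267799 UMIs in all, so a level of 2.37 CPM is 3 UMIs.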

Other observations

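The Sncg-like nuclei, a class rich in Cck, stood near the members in some genes and apart in others. Hrh2 was at 86.8 CPM in Vip-like and 80.8 CPM in the 90 Sncg-like nuclei, and Nr3c2 at 689 and 879.8. Htr4, Adra1b, Egfr, Kcnt2 and Grm8 stood at 233, 241, 431, 838 and 1011 CPM in Vip-like nuclei and at 19.6, 44.3, 35.2, 216 and 189 CPM in Sncg-like nuclei. Syt6 stood at 39.4 against 147 CPM. These pairs were chosen after their values were seen.

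Of 12 Gq signalling genes compared with Pvalb- and Sst-like nuclei 1 was higher and 2 were lower, beside shares of 3.36% and 7.09% over all genes. The higher one was Dgkb, a diacylglycerol kinase (1.79 (1.65 to 1.92)), and a lower one was Itpr1, the channel that releases calcium from stores (-1.04 (-1.29 to -0.80)). The call of Itpr1 was lost without library 3 (-0.87), and its ratio turned to 0.027 with a mitochondrial limit of 1%. Of 7 stress and glucocorticoid genes 2 were higher, Nr3c2 and Zbtb16. Fkbp5, induced by glucocorticoids, stood at 51.3 against 42.9 CPM (0.26 (-0.15 to 0.65)) and Sgk1 at 205 against 159.9 CPM (0.36 (0.16 to 0.55)), with no call; both were named after their values were seen, as was Slc32a1. Of 4 further genes of the GABA phenotype none was called, with the vesicular transporter gene Slc32a1 at 34.7 against 39.3 CPM (-0.18 (-0.67 to 0.28)).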
